A study of Homo sapiens with 6 samples.

Results

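The genes described here are the 190 expressed genes with a plain ZNF name (ZNF followed by digits only) in HLE cells, a human hepatocellular carcinoma line, after knockdown of ZNF281. A gene was taken when its mean over the 6 libraries was 2 FPKM or more (fragments per kilobase of transcript, scaled to library size, a level per unit of transcript length). ZNF281, the target, and ZNF148, its closest paralog, were set aside. The 190 genes were 40.6% of the 468 ZNF-named genes of the table and came from 19503 named genes in all. Of the 278 ZNF-named genes left out, 74 were still high enough to be tested. The members were thus chosen by a measured value, their mean level over all libraries, so their levels are given as a description with no test. Just above the limit stood ZNF180, ZNF121 and ZNF155, at means of 2.02, 2.03 and 2.05 FPKM. Just below it stood ZNF292, ZNF449 and ZNF260, at 1.97, 1.95 and 1.92 FPKM.

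C2H2 zinc finger proteins form the largest family of human transcription factors, and each finger folds around a zinc ion and can contact a short stretch of DNA or RNA. Many of them carry a KRAB domain, whose A box recruits the co-repressor TRIM28 (KAP1) and through it the histone methyltransferase SETDB1 and heterochromatin proteins. KRAB zinc finger genes arose by repeated duplication and lie in clusters, above all on chromosome 19, and many of their products bind transposable elements. ZNF281 itself has no KRAB domain and binds G-rich promoter elements.

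Total RNA was sequenced from 3 established HLE lines, with 2 libraries each. The kd.1 and kd.2 lines carry different lentiviral short hairpin RNAs (shRNAs) against ZNF281, and the control line carries a control shRNA. All 3 lines were infected at a multiplicity of 10 and then kept in puromycin for 7 days, so vector and drug selection are common to all of them, and each shRNA is represented by a single line. Nothing in the labels shows that the 2 libraries of a line were grown apart, so every p-value covers the spread among the libraries at hand, part or all of which may be technical.

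ZNF281 stood at 4.35 and 4.71 FPKM in kd.1 and at 4.37 and 4.47 FPKM in kd.2, against 9.52 and 8.43 FPKM in the control. Its log2 change was -0.97 ± 0.09 (SE) in kd.1 (limma, Benjamini-Hochberg adjusted p = 0.000249) and -1.0 ± 0.09 in kd.2 (adjusted p = 0.000241). Library sums ran from 512672.6 to 575886.9 FPKM, with the highest in control replicate 2, and absolute depth is unknown because no counts were used. Between the 2 libraries of a line, the log2 difference of a member had an SD of 0.121 for kd.1, of 0.122 for kd.2 and of 0.202 for the control, the widest. HLE is known as an undifferentiated line: APOA1, TTR and CYP3A4 of the 5 hepatocyte markers measured were at 0.05 FPKM or less in every library, while SERPINA1 stood at 1.88 to 3.17 FPKM and HNF4A at 1.15 and 1.2 FPKM in kd.1 and 0.45 and 0.51 FPKM in kd.2, against 0.55 and 0.60 FPKM in the control. Of the epithelial markers, CDH1 and EPCAM were at 0.07 FPKM or less, and KRT8 stood at 592.9 and 645.04 FPKM in kd.1 and 1154.65 and 1180.84 FPKM in kd.2, against 1309.33 and 1315.07 FPKM in the control. KRT18 was likewise lowest in kd.1, at 499.4 and 547.2 FPKM. Of the mesenchymal markers, VIM was at 266.9 FPKM or more, CDH2 at 3.09 FPKM or more, and FN1 and SPARC at 0.13 FPKM or less. The leukocyte markers PTPRC, CD3E and CD14 were at 0.22 FPKM or less and LYZ at 0.78 to 1.27 FPKM. Fibroblast-associated LUM stood at 192.99 to 210.93 FPKM, and DCN at 98.5 and 86.03 FPKM in kd.1 and 38.6 and 37.9 FPKM in kd.2, against 72.5 and 73.3 FPKM in the control. Of the same fibroblast list, COL1A1 was low, at 0.45 to 1.39 FPKM, and COL1A2 was at 0.02 FPKM or less. The part of these shifts in the results on the members was not tested.

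The members were mostly weakly expressed. Their means had a median of 4.66 FPKM, against 13.0 FPKM over the 10851 tested genes, and 100 members lay between 2 and 5 FPKM, 50 between 5 and 10, and 40 at 10 or more. The highest were ZNF207, a spindle and kinetochore protein, at a mean of 125 FPKM, and ZNF622, a maturation factor of the large ribosomal subunit, at 67.5 FPKM. They were followed by ZNF593 at 49.9, ZNF195 at 41.7, ZNF131 at 41.3 and ZNF664 at 34.5 FPKM. All 190 members passed the filter for testing, 1 FPKM in at least 2 libraries, and 166 stood at 2 FPKM or more in all 6 libraries.

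In kd.1, 27 members rose and 16 fell against the control, 22.6% of the family, and 147 were not called. Over all tested genes, 29.2% were called in kd.1, 15.8% upward and 13.4% downward, and 29.7% of genes with a mean of 2 FPKM or more were called, so the family's share lay below the background. The changes were small: 176 of the 190 members moved by less than 0.5 on the log2 scale, and 1 member, ZNF821, by 1 or more. The median log2 change of the members was 0.065 (the values run from -1.08 to 0.85), against 0.02 over all tested genes. Both kd.1 libraries stood above both controls for 78 members and below both for 43, while 35.5% and 30.1% of all tested genes did so. Set against each control library alone, the kd.1 mean was higher for 113 members with control replicate 1 and for 118 with control replicate 2, and 149 members kept the same sign with either. Whenever a library was left out, here and below, the lone library of its line added nothing to the spread. Without a control library the spread came from the knockdown duplicates alone, which lay closer together than the controls. Leaving out control replicate 1 gave 48 members that rose and 26 that fell. Leaving out a kd.1 library gave 9 and 7 (replicate 1) or 12 and 6 (replicate 2), and leaving out either kd.2 library gave 16 and 10. With all libraries scaled to a common FPKM sum they were 30 and 8, which puts 78.9% of the calls upward in place of 62.8%.

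In kd.2, 19 members rose and 31 fell, 26.3% of the family, against 37.9% of all tested genes (15.7% upward and 22.2% downward) and 38.4% of those with a mean of 2 FPKM or more. ZNF267 moved most, by 1.07 on the log2 scale, and 179 members moved by less than 0.5. The median change was -0.01 for the members and -0.03 for all tested genes. Both kd.2 libraries lay above both controls for 54 members and below both for 65, against 31.6% and 39.9% of all tested genes. With control replicate 1 alone the kd.2 mean was higher for 90 members, with control replicate 2 alone for 91, and 153 members kept their sign. Leaving out control replicate 1 gave 44 risen and 47 fallen members, while leaving out a kd.2 library gave 3 and 6 (replicate 1) or 9 and 5 (replicate 2). A common FPKM sum turned them round to 25 and 11 (69.4% upward in place of 38.0%) and the median to 0.09, and all tested genes turned with them, to 61.2% upward in place of 41.5% and a median of 0.065 in place of -0.03.

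Both contrasts use the same control libraries. Taking the mean of both knockdowns against the control, 24 members rose, 21 fell and 145 were not called, so that 23.7% of the family was called, against 34.7% of all tested genes (16.1% upward and 18.6% downward) and 35.7% of those with a mean of 2 FPKM or more. All 4 knockdown libraries stood above both controls for 33 members and below both for 26, and 38.3% of all tested genes stood clear of the controls on one side or the other. Leaving out control replicate 1 gave 51 risen and 37 fallen members, and leaving out control replicate 2 gave 22 and 11. Leaving out a kd.1 library gave 18 and 9 or 19 and 9, and leaving out a kd.2 library gave 15 and 6 or 17 and 7, for replicates 1 and 2 in turn. A common FPKM sum gave 26 and 8 (76.5% upward in place of 53.3%).

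**Figure D1:**
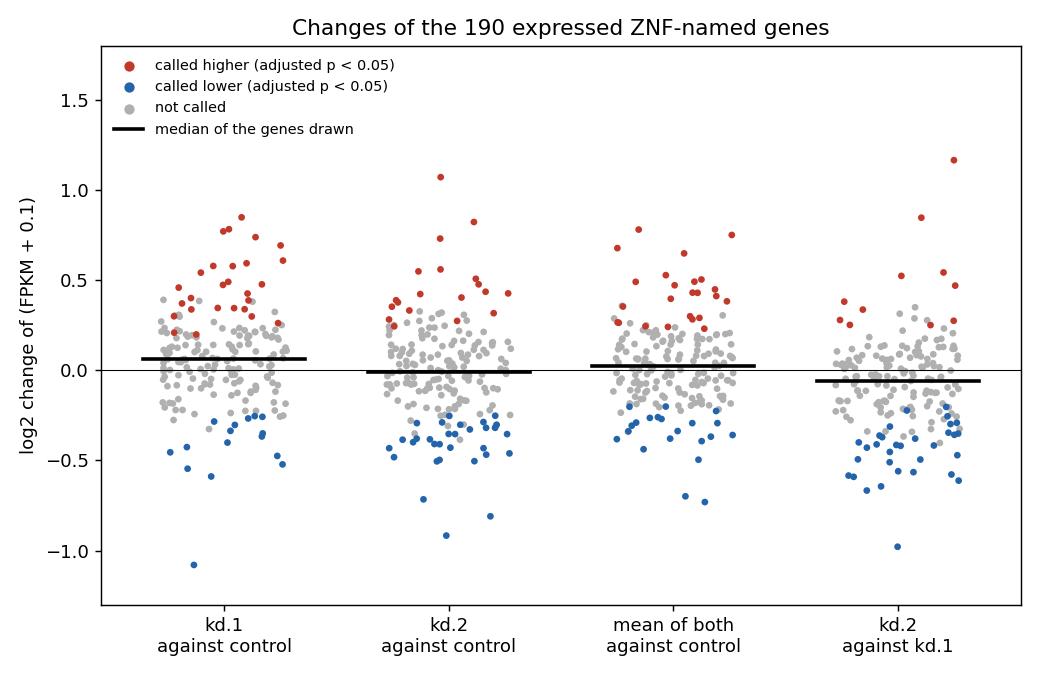
Log2 change of (FPKM + 0.1) of each of the 190 members in 4 comparisons, with called members in red (higher) and blue (lower), uncalled members in grey and the median as a black bar. The medians lie between -0.06 and 0.065, and only ZNF821 and ZNF267 reach a change of 1 or more in size. Under a common FPKM sum the kd.2 median changes sign, to 0.09.

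ZNF24, a SCAN-domain repressor described at the VEGFA gene, showed the strongest joint rise of the family. ZNF24 (gene ID 7572; GRCh38 chromosome 18, 35332212 to 35345482, minus strand) stood at 12.9 and 12.0 FPKM in kd.1 and at 13.5 and 13.0 FPKM in kd.2, against 8.22 and 6.71 FPKM in the control. All 4 knockdown libraries lay above both controls. The log2 change was 0.74 ± 0.10 (SE, adjusted p = 0.00134) in kd.1 and 0.82 ± 0.10 (adjusted p = 0.000824) in kd.2, which is 1.67-fold and 1.77-fold on the scale of log2(FPKM + 0.1) used for every change here. Leaving out any library kept both calls.

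ZNF721, with 23 finger matches, stood at 2.71 and 2.64 FPKM in kd.1 and at 2.67 and 2.53 FPKM in kd.2, against 1.75 and 1.33 FPKM in the control. Its groups did not overlap, and it rose in kd.1 (0.77 ± 0.14, adjusted p = 0.00455) and in kd.2 (0.73 ± 0.14, adjusted p = 0.00482). Leaving out kd.2 replicate 1 ended the kd.2 call (adjusted p = 0.0537). ZNF860, a KRAB gene, stood at 3.39 and 2.96 FPKM in kd.1 and at 2.50 and 2.46 FPKM in kd.2, against 1.92 and 1.53 FPKM in the control. All 4 knockdown libraries were again above both controls, with changes of 0.85 ± 0.13 in kd.1 (adjusted p = 0.00248) and 0.51 ± 0.13 in kd.2 (adjusted p = 0.0181). The kd.2 call of ZNF860 did not hold without kd.2 replicate 1 (adjusted p = 0.109) or replicate 2 (adjusted p = 0.0945).

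ZNF35 and ZNF32, C2H2 genes without a KRAB match, and the KRAB gene ZNF283 also rose in both lines. ZNF35 stood at 4.27 and 4.0 FPKM in kd.1 and at 4.68 and 4.15 FPKM in kd.2, against 3.03 and 2.93 FPKM in the control, with no overlap and changes of 0.46 and 0.55. ZNF32 stood at 11.46 and 11.01 FPKM in kd.1 and at 10.46 and 9.44 FPKM in kd.2, against 6.59 and 8.50 FPKM in the control, again without overlap (changes of 0.58 and 0.40). ZNF283 stood at 3.15 and 3.05 FPKM in kd.1 and at 2.62 and 2.73 FPKM in kd.2, against 2.07 and 1.97 FPKM in the control (0.59 and 0.39). Adjusted p-values of these 3 genes lay between 0.00366 and 0.0105 in kd.1 and between 0.00414 and 0.0273 in kd.2. The ZNF35 call was lost in kd.1 without kd.1 replicate 1 (adjusted p = 0.0905) and in kd.2 without kd.2 replicate 1 (0.058). The kd.2 calls of ZNF32 (0.177 and 0.0784) and ZNF283 (0.0892 and 0.121) were lost without kd.2 replicate 1 or replicate 2.

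ZNF267 and ZNF140, both KRAB genes, were called in the mean of both lines and, taken line by line, in a single line. ZNF267, described in activated hepatic stellate cells and liver fibrosis, stood at 3.21 and 3.33 FPKM in kd.1 and at 6.0 and 5.92 FPKM in kd.2, against 3.07 and 2.52 FPKM in the control. The knockdown libraries all lay above both controls, kd.2 furthest, at 2.10-fold the control (log2 1.07 ± 0.11, adjusted p = 0.000386), while the kd.1 change of 0.225 ± 0.11 was not called (adjusted p = 0.153) unless control replicate 1 was left out (0.0102). ZNF140 stood at 3.17 and 3.01 FPKM in kd.1 and at 2.46 and 1.86 FPKM in kd.2, against 1.60 and 1.92 FPKM in the control. Here kd.1 stood apart (0.78 ± 0.15, adjusted p = 0.00637), and the kd.2 libraries overlapped the controls (0.27 ± 0.15, adjusted p = 0.178). The ZNF140 call in the mean of both lines (0.53, adjusted p = 0.016) ended without kd.2 replicate 1 (0.0533).

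Of the members that fell in the mean of both knockdowns, ZNF789 and ZNF362 moved most. ZNF789 (gene ID 285989; GRCh38 chromosome 7, 99472841 to 99503650, plus strand), a KRAB gene, stood at 3.34 and 3.32 FPKM in kd.1 and at 2.43 and 2.68 FPKM in kd.2, against 5.07 and 4.75 FPKM in the control. The 4 knockdown libraries lay below both controls, with changes of -0.55 ± 0.10 in kd.1 (adjusted p = 0.0047) and -0.92 ± 0.10 in kd.2 (adjusted p = 0.000438). ZNF362 (gene ID 149076; GRCh38 chromosome 1, 33256545 to 33300719, plus strand), a paralog of ZNF384, stood at 3.77 and 3.40 FPKM in kd.1 and at 3.18 and 2.94 FPKM in kd.2, against 5.79 and 5.10 FPKM in the control. It fell by 0.59 ± 0.11 in kd.1 (adjusted p = 0.00483) and by 0.81 ± 0.11 in kd.2 (adjusted p = 0.00105), again without overlap. Leaving out any library kept the calls of ZNF789 and ZNF362 in both lines.

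ZNF821 (gene ID 55565; GRCh38 chromosome 16, 71859680 to 71895336, minus strand) fell in kd.1 and was not called in kd.2. It stood at 1.25 and 1.53 FPKM in kd.1 and at 3.14 and 3.32 FPKM in kd.2, against 2.63 and 3.50 FPKM in the control. The kd.1 libraries were the lowest and the kd.2 libraries lay within the range of the controls. Its log2 change was -1.08 ± 0.15 in kd.1 (adjusted p = 0.0016) and 0.09 ± 0.15 in kd.2 (adjusted p = 0.677). The ZNF821 call in the mean of both lines (-0.50) depended on single libraries, and that change was -0.30 without control replicate 2. ZNF138, a KRAB gene, showed the other order, at 3.32 and 2.85 FPKM in kd.1 and at 1.89 and 1.91 FPKM in kd.2, against 3.24 and 3.13 FPKM in the control. It fell in kd.2 (-0.72 ± 0.11, adjusted p = 0.00215), and kd.1 overlapped the control (-0.05 ± 0.11, adjusted p = 0.766). The ZNF138 call in the mean of both lines depended on single libraries and was lost under a common FPKM sum (-0.30, adjusted p = 0.0733).

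ZNF511, ZNF428, ZNF358 and ZNF706, members with no KRAB match, fell in both lines by less. ZNF511 stood at 22.6 and 21.5 FPKM in kd.1 and at 22.6 and 21.9 FPKM in kd.2, against 27.3 and 31.0 FPKM in the control (changes of -0.40 and -0.385, adjusted p = 0.00612 and 0.00604). ZNF428 stood at 8.70 and 8.43 FPKM in kd.1 and at 9.55 and 9.72 FPKM in kd.2, against 11.3 and 13.4 FPKM in the control (-0.52 and -0.35, adjusted p = 0.00435 and 0.0176). ZNF358 stood at 10.8 and 10.4 FPKM in kd.1 and at 9.92 and 10.4 FPKM in kd.2, against 12.0 and 15.2 FPKM in the control (-0.35 and -0.41, adjusted p = 0.0399 and 0.0188). In each of these 3 genes control replicate 2 was the highest library and the knockdown libraries did not overlap the controls. ZNF706 stood at 17.5 and 17.6 FPKM in kd.1 and at 15.3 and 14.7 FPKM in kd.2, against 19.6 and 22.4 FPKM in the control (-0.25 and -0.48, adjusted p = 0.0397 and 0.00261). Several of these calls depended on single libraries. Leaving out a kd.2 library ended the kd.2 calls of ZNF511 (0.0505 and 0.0627), ZNF428 (0.114 and 0.0934) and ZNF358 (0.125 and 0.0812), for replicates 1 and 2 in turn, and leaving out kd.1 replicate 2 ended the kd.1 call of ZNF511 (0.0548). The kd.1 calls of ZNF358 and ZNF706 ended without control replicate 2 (0.0835 and 0.0784) and without any knockdown library (0.0789 to 0.178 for ZNF358 and 0.0827 to 0.169 for ZNF706). Under a common FPKM sum the kd.1 calls of ZNF358 (0.0775) and ZNF706 (0.129) and the kd.2 call of ZNF428 (0.0622) were lost.

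**Figure D2:**
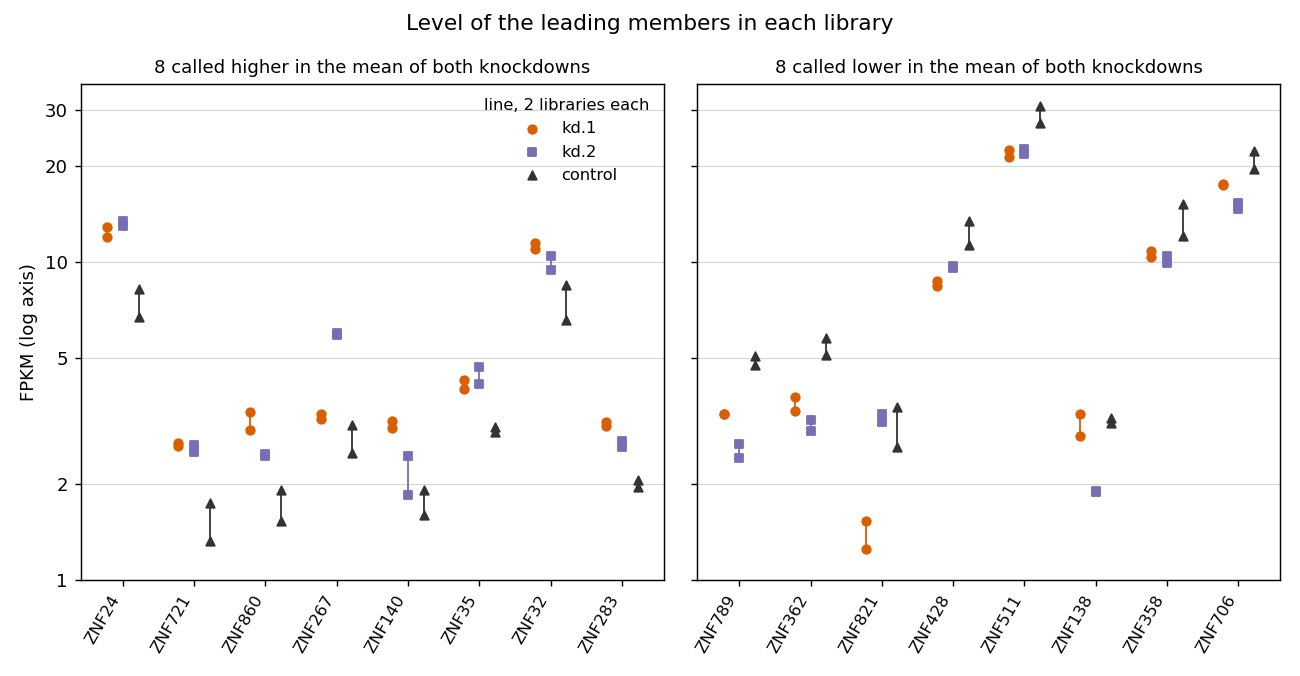
FPKM (log axis) in each library of the 8 members called higher and the 8 called lower with the largest changes in the mean of both knockdowns, with kd.1 (circles), kd.2 (squares) and control (triangles) side by side and the 2 libraries of a line joined. ZNF24 stands at 12.0 to 13.5 FPKM in the 4 knockdown libraries, against 6.71 and 8.22 FPKM in the control, while ZNF267 is highest in kd.2, with the kd.1 libraries just above the controls, and ZNF821 is lowest in kd.1.

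How reads were assigned bears on some of these genes, and whether counting used the strand is not given in the sources used here. In the GENCODE 29 annotation, exons of another gene on the opposite strand covered 52.8% of the exons of ZNF821, 38.8% of ZNF511, 31.2% of ZNF32, 26.9% of ZNF789 (under ZNF394), 24.9% of ZNF428 (under SRRM5) and 20.5% of ZNF140 (under ZNF891). ZNF511 also shared 23.5% of its 50-base words with a readthrough transcript, and ZNF358 shared 19.5% with an overlapping annotation. ZNF207, the member with the highest level, shared 19.6% with an overlapping annotation. ZNF24, ZNF362 and ZNF267 had no exon overlap and shared less than 1% of their words. Over the family, 22 members shared more than 10% of their 50-base words with other genes and 20 were covered on the opposite strand by more than 20%, so their values are uncertain to that extent. The part of these overlaps in the changes was not tested.

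Promoters of the called members were read for CCCTCCCC, a C-rich string (G-rich on the other strand) chosen with earlier results of these data known. In the RefSeq table for GRCh38.p14, which holds a window of fixed length around each gene's start site, 165 members had a promoter. The string or its complement, GGGGAGGG, stood in 3 of 23 risen members (13.0%), 5 of 18 fallen members (27.8%) and 19 of 124 members not called (15.3%) in the mean of both knockdowns, against 27 of all 165 members (16.4%), 16.1% of the 8441 tested genes with a promoter and 12.8% of all 27305 promoters. Windows of 30 bases around the string are shown for ZNF24, ZNF362, ZNF789 and ZNF821, picked from the called members that held it. ZNF721 and ZNF860, which also rose in both lines, had no such window. The string is in capitals, 5′ to 3′ on the strand of the gene.
ZNF24, chr18:35344523-35344552, minus strand, rose in both lines: cgtggggccgcCCCTCCCCcgcccggggcg
ZNF362, chr1:33256261-33256290, plus strand, fell in both lines: cccgcccggccCCCTCCCCtctcgcgcagt
ZNF789, chr7:99472740-99472769, plus strand, fell in both lines: ttggcctgggcGGGGAGGGcggccgttgat
ZNF821, chr16:71883743-71883772, minus strand, fell in kd.1: gcccgggctcaCCCTCCCCgcttccaaccc
The string was thus held by members that rose and members that fell. A match is a run of letters in this window, not a measured site.

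The 3′ untranslated regions (UTRs) were read for the heptamer TCAGAGT, which was picked with earlier results of these data in view, so that its shares are a description. It occurred in 5 of 23 risen members (21.7%), 6 of 19 fallen members (31.6%) and 18 of 144 members not called (12.5%), against 1166 of the 10562 tested genes with a 3′ UTR. The median 3′ UTR was 902 bases in the risen, 1090 in the fallen and 1022 in the other members. Sites of TCAGAGT in the 2 risen members that were named above are shown with the heptamer in capitals, as written in the GENCODE 29 transcript.
ZNF24 (risen), position 2106 of a 3′ UTR of 5020 bases: gaattcttgtaTCAGAGTaggtaagaaggg
ZNF283 (risen), position 1397 of a 3′ UTR of 3376 bases: gggattttaatTCAGAGTttatcccttaag
ZNF195 (fallen), position 65 of a 3′ UTR of 1190 bases: cccactttacaTCAGAGTtcagacttaata
ZNF195 is given beside them because its letters lie near the start of its 3′ UTR. It stood at 47.34 and 43.85 FPKM in kd.1 and at 35.16 and 33.07 FPKM in kd.2, against 43.42 and 47.34 FPKM in the control, so that it fell in kd.2 (-0.41 ± 0.07, adjusted p = 0.00381) and not in kd.1 (0.01 ± 0.07, adjusted p = 0.95). Its call in the mean of both lines (-0.20, adjusted p = 0.0373) was lost under a common FPKM sum (-0.11, 0.19) and without any library but control replicate 1 (up to 0.137), and its kd.2 call without kd.2 replicate 2 (0.0522). The letters stood in members that moved in either direction.

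Members with described roles were then read by role. Of the 11 genes that act on ribosomes, RNA or the spindle, 3 rose and 2 fell in the mean of both knockdowns (27.3% and 18.2%), against 16.1% and 18.6% of all tested genes. ZNF598, the ubiquitin ligase that marks collided ribosomes, stood at 28.04 and 29 FPKM in kd.1 and at 33.92 and 35.34 FPKM in kd.2, against 25.73 and 25.87 FPKM in the control. All 4 knockdown libraries were above both controls, kd.2 furthest, and the kd.2 change was called (0.42 ± 0.06, adjusted p = 0.00155) while that of kd.1 was not (0.14 ± 0.06, adjusted p = 0.106). ZNF622, which acts late in maturation of the large ribosomal subunit, stood at 69.0 and 67.5 FPKM in kd.1 and at 76.7 and 73.1 FPKM in kd.2, against 60.04 and 58.85 FPKM in the control. It rose in kd.1 (0.20 ± 0.06, adjusted p = 0.0357) and in kd.2 (0.33 ± 0.06, adjusted p = 0.00397). Leaving out any knockdown library ended the kd.1 call of ZNF622 (adjusted p from 0.0874 to 0.209), and leaving out kd.2 replicate 1 ended its kd.2 call (0.0649).

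ZNF106, an RNA-binding protein tied to splicing, rose in both lines by 0.30 ± 0.09 and 0.28 ± 0.09 (adjusted p = 0.0336 and 0.0338), at 14.4 and 15.5 FPKM in kd.1 and 14.48 and 15.01 FPKM in kd.2, against 13.1 and 11.2 FPKM in the control. All 4 knockdown libraries stood above both controls, but both ZNF106 calls were lost without control replicate 2 (0.0667 and 0.0785) or any knockdown library (up to 0.202 in kd.1 and 0.182 in kd.2). ZNF830, a splicing-associated protein, fell in kd.1 (-0.26 ± 0.08, adjusted p = 0.0419) at 10.1 and 9.66 FPKM in kd.1 and 10.7 and 10.0 FPKM in kd.2, against 11.3 and 12.4 FPKM in the control. That call did not hold under a common FPKM sum (adjusted p = 0.162), nor without control replicate 2 (0.0842) or any knockdown library (up to 0.226). ZNF207, the most abundant member, stood at 133 and 126 FPKM in kd.1 and at 127 and 122 FPKM in kd.2, against 125 and 119 FPKM in the control. Its groups overlapped, and changes of 0.09 ± 0.06 and 0.03 ± 0.06 were not called. ZNF593, whose yeast counterpart acts on pre-60S ribosomes, ZNF638, ZNF326, ZNF318 and the dsRNA-binding ZNF346 were called in neither line against the control, with changes between -0.21 and 0.19. ZNF593 had controls far apart, at 48.8 and 49.8 FPKM in kd.1 and 51.5 and 51.2 FPKM in kd.2, against 42.7 and 55.3 FPKM in the control. Its kd.1 change was called lower without control replicate 1 (-0.165, adjusted p = 0.0192) and higher without control replicate 2 (0.21, 0.0132), its kd.2 change was called higher without control replicate 2 (0.27, 0.00387), and 100% of its exons are covered on the opposite strand. ZNF638 was called in kd.1 without control replicate 2 (0.18, 0.0455).

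Among 17 DNA-binding or cofactor genes with described roles and no KRAB box, 2 rose and 1 fell in the mean of both knockdowns (11.8% and 5.88%), against 16.1% and 18.6% of all tested genes. ZNF24, given above, and ZNF451 rose. ZNF451, a SUMO ligase, stood at 9.52 and 9.75 FPKM in kd.1 and at 10.6 and 10.6 FPKM in kd.2, against 8.45 and 6.76 FPKM in the control, with changes of 0.35 ± 0.10 (adjusted p = 0.0371) and 0.48 ± 0.10 (adjusted p = 0.00893). Control replicate 2 was the low library of ZNF451, and without it the kd.1 call was lost (adjusted p = 0.0649), as it was without any library of kd.1 (0.125 and 0.164) or kd.2 (0.0786 and 0.0785). The kd.2 call was lost without kd.2 replicate 1 (0.0706) or replicate 2 (0.0659). ZNF395 fell in kd.2 (-0.32 ± 0.08, adjusted p = 0.0144) and not in kd.1 (-0.09 ± 0.08, adjusted p = 0.434). The kd.2 call of ZNF395 ended without either kd.2 library (0.108 and 0.085) and under a common FPKM sum (0.122), and this gene shared 41.7% of its 50-base words with FBXO16.

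ZNF146, a protein made almost wholly of fingers, and ZNF217, a partner of the CoREST and LSD1 co-repressor, took unlike courses in the lines. ZNF146 stood at 22.3 and 22.2 FPKM in kd.1 and at 32.5 and 32.5 FPKM in kd.2, against 31.1 and 28.9 FPKM in the control. It fell in kd.1 (-0.43 ± 0.06, adjusted p = 0.00197), and the kd.2 libraries lay above the controls without a call (0.12 ± 0.06, adjusted p = 0.169, or 0.0232 without control replicate 1). ZNF217 stood at 8.52 and 8.55 FPKM in kd.1 and at 11.9 and 12.7 FPKM in kd.2, against 11.4 and 9.37 FPKM in the control, and neither change from the control was called (adjusted p = 0.0667 and 0.0789). The controls of ZNF217 stood far apart, so that its kd.1 change was -0.42 without control replicate 2 and its kd.2 change was 0.39 without control replicate 1.

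ZNF143, an activator at many promoters, and its paralog ZNF76 stayed close to the control in kd.1 (0.18 ± 0.08, adjusted p = 0.122, and 0.00 ± 0.09, adjusted p = 0.987). In kd.2, ZNF76 fell by 0.29 ± 0.09 (adjusted p = 0.039), a call lost without kd.2 replicate 1 (0.265) or replicate 2 (0.0693) and under a common FPKM sum (-0.19, adjusted p = 0.215), and ZNF143 was not called (0.04 ± 0.08, adjusted p = 0.732). ZNF687, ZNF592 and ZNF532, partners of ZMYND8 in a chromatin complex, were called in neither line, with changes between -0.05 and 0.30. Without control replicate 1, ZNF687 changed by 0.46 in kd.1 and 0.24 in kd.2, and ZNF592 by 0.30 in kd.1 and 0.19 in kd.2. ZNF410, a selective activator of CHD4, changed by 0.19 ± 0.07 in kd.1 (adjusted p = 0.0653, or 0.013 without control replicate 2 and 0.0287 under a common FPKM sum) and by -0.03 ± 0.07 in kd.2 (adjusted p = 0.744). CHD4 itself was not called in kd.1 (0.04 ± 0.08, adjusted p = 0.745) and rose in kd.2 (0.335 ± 0.08, adjusted p = 0.0113), a call that ended without either kd.2 library (0.0737 and 0.0945). ZNF410 shared 83.5% of its 50-base words with another annotation, so its level is uncertain.

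Of 10 KRAB genes with described targets, 2 rose and none fell in the mean of both knockdowns (limma, adjusted p under 0.05; 3 and 0 at an unadjusted p under 0.05), against 16.1% and 18.6% of all tested genes, namely ZNF267 and ZNF263. ZNF263 stood at 13.6 and 13.4 FPKM in kd.1 and at 14.4 and 13.8 FPKM in kd.2, against 11.7 and 11.6 FPKM in the control, and rose by 0.21 ± 0.07 (adjusted p = 0.0457) and 0.27 ± 0.07 (adjusted p = 0.014). The kd.1 call of ZNF263 was lost without either kd.1 library (0.223 and 0.197) or either kd.2 library (0.101), and the kd.2 call without kd.2 replicate 1 (0.122) or replicate 2 (0.0755). ZNF274, which is known to bind the 3′ ends of zinc finger genes and bring SETDB1 to them, stood at 8.60 and 9.31 FPKM in kd.1 and at 7.01 and 6.25 FPKM in kd.2, against 8.22 and 7.98 FPKM in the control. It was lowest in kd.2, where it fell by 0.29 ± 0.09 (adjusted p = 0.0321), a call lost without either kd.2 library (0.07 and 0.231), without either kd.1 library (0.055 and 0.0553) and under a common FPKM sum (0.197).

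ZNF224, a repressor described at the aldolase A promoter, rose in kd.1 (0.49 ± 0.11, adjusted p = 0.0117) at 2.93 and 3.06 FPKM in kd.1 and 1.98 and 1.95 FPKM in kd.2, against 2.23 and 1.98 FPKM in the control. The kd.1 libraries stood apart, and the call was lost without kd.1 replicate 1 (0.0616) or replicate 2 (0.093). ZNF675, an inhibitor of TRAF6 signalling, stood at 4.10 and 3.81 FPKM in kd.1 and at 2.65 and 2.58 FPKM in kd.2, against 3.47 and 3.49 FPKM in the control. The 3 lines did not overlap, and ZNF675 fell in kd.2 (-0.40 ± 0.09, adjusted p = 0.0123), a call lost without either kd.2 library (0.0764 and 0.0902) and under a common FPKM sum (0.0687). ZNF202, ZNF205, ZNF282, ZNF398 and ZNF57 were called in neither line, with changes between -0.13 and 0.22. Without control replicate 1, ZNF398 changed by 0.26 in kd.1 and 0.29 in kd.2, and ZNF57 by -0.26 in kd.2.

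**Figure D3:**
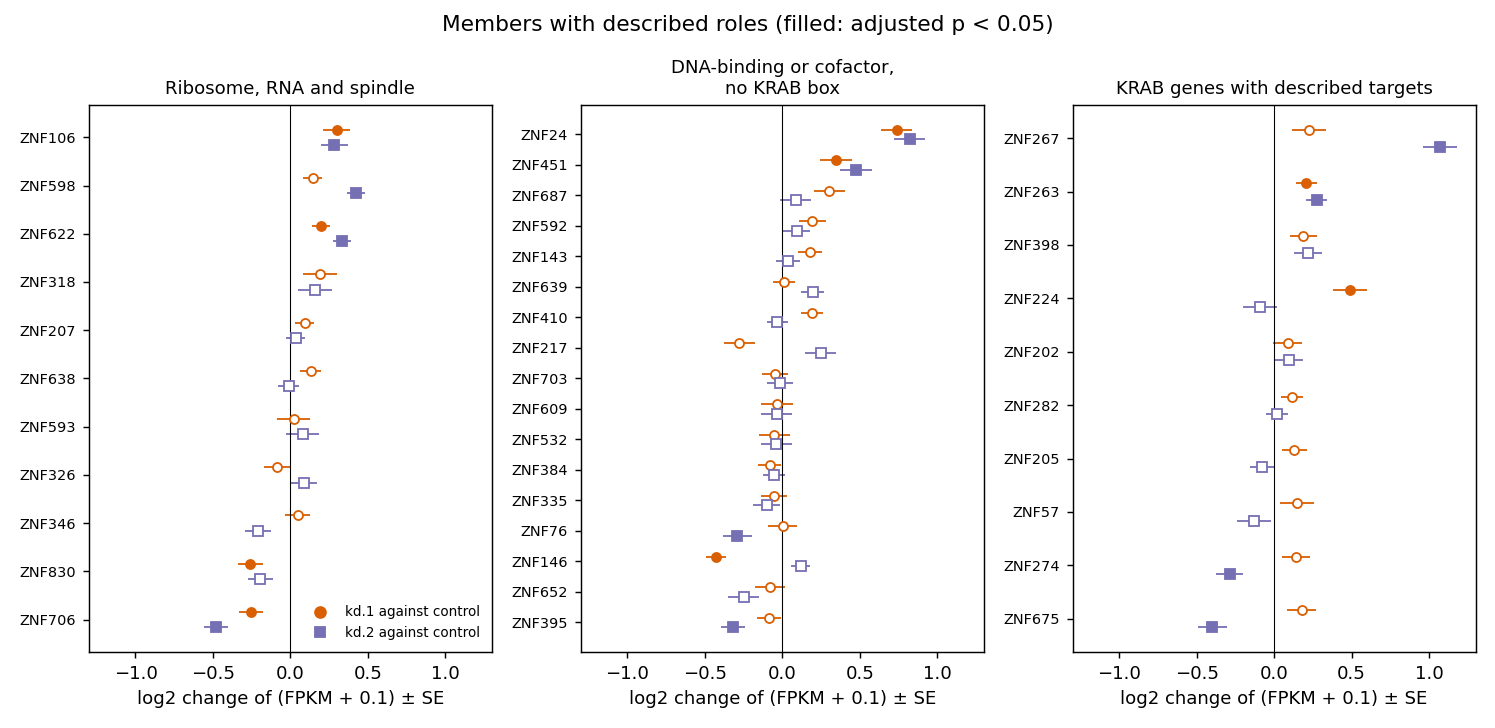
Log2 change of (FPKM + 0.1) with its SE of the 38 members with described roles, in kd.1 (orange circles) and kd.2 (purple squares) against the control, filled where the adjusted p was under 0.05. ZNF24 and ZNF267 lie furthest to the right, at 0.82 and 1.07 in kd.2, and ZNF706 furthest to the left, at -0.48 in kd.2.

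A direct comparison of the knockdown lines leaves out the control means, but its p-values use the spread pooled over all lines, the control among them. It called 11 members higher and 32 lower in kd.2 than in kd.1, 22.6% of the family, against 32.2% of all tested genes (11.9% higher and 20.3% lower). With only the knockdown lines in the fit, 21 members were higher and 51 lower. The median difference, kd.2 minus kd.1, was -0.06 for the members and -0.05 for all tested genes. ZNF821 (1.17 ± 0.15, adjusted p = 0.000829), ZNF267 (0.85 ± 0.11, adjusted p = 0.000771), ZNF146 (0.54 ± 0.06, adjusted p = 0.000464), ZNF217 (0.52 ± 0.10, adjusted p = 0.00469) and ZNF777 (0.47 ± 0.08, adjusted p = 0.00236) were highest in kd.2 relative to kd.1. Leaving out either control library gave 21 higher and 51 lower. Leaving out a kd.2 library gave 5 and 13 or 4 and 10, and leaving out a kd.1 library gave 5 and 11 or 5 and 14, for replicates 1 and 2 in turn. Centring every library on its median gave 17 and 25, so that 40.5% of the calls were upward in place of 25.6%, and without kd.2 replicate 2 the ZNF217 difference was not called (adjusted p = 0.0535).

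ZNF30 (gene ID 90075; GRCh38 chromosome 19, 34926903 to 34945170, plus strand), a KRAB gene, was called in opposite directions in the lines. It stood at 2.80 and 3.07 FPKM in kd.1 and at 1.37 and 1.51 FPKM in kd.2, against 2.00 and 2.17 FPKM in the control. The control libraries lay between the lines, with no overlap. ZNF30 rose in kd.1 (0.47 ± 0.12, adjusted p = 0.0176) and fell in kd.2 (-0.505 ± 0.12, adjusted p = 0.011), and kd.2 against kd.1 gave -0.98 ± 0.12 (adjusted p = 0.000503). The kd.1 call was lost without kd.1 replicate 1 (change of 0.54, adjusted p = 0.0622) or replicate 2 (0.41, 0.138) and the kd.2 call without kd.2 replicate 1 (-0.44, 0.096), while the difference between the lines kept its call whichever library was left out.

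A match to the KRAB A box was found in the longest annotated protein of 95 members and not in the other 95. Members with the match had more C2H2 finger matches (a median of 11, against 7 without it) and lower levels (a median of 3.51 FPKM, against 7.99 without it). Of the members with the match, 15 rose and 5 fell in kd.1 (15.8% and 5.26%), and 9 rose and 17 fell in kd.2 (9.47% and 17.9%). Without the match, 12 rose and 11 fell in kd.1 (12.6% and 11.6%), and 10 rose and 14 fell in kd.2 (10.5% and 14.7%). Over all tested genes, 15.8% rose and 13.4% fell in kd.1, and 15.7% rose and 22.2% fell in kd.2. Between the lines, 4 members with the match were higher in kd.2 and 21 lower (4.21% and 22.1%). Without it, 7 were higher and 11 lower (7.37% and 11.6%), against 11.9% and 20.3% of all tested genes. Under a common FPKM sum the members with the match counted 15 risen and 2 fallen in kd.1 and 11 and 5 in kd.2, so the kd.2 balance turned, and those without it counted 15 and 6 in kd.1 and 14 and 6 in kd.2. Leaving out kd.2 replicate 1 left 1 and 4 with the match in kd.2, and leaving out kd.1 replicate 1 left 6 and 1 in kd.1, while control replicate 1 left out gave 28 and 6 in kd.1 and 19 and 20 in kd.2.

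Of the 4 groups formed by KRAB match and chromosome 19, the KRAB members on chromosome 19 had the lowest kd.2 values relative to kd.1. Chromosome 19 carries 59 of the 190 members, 39 of them with a KRAB match. Of these 39, none was called higher and 12 lower in kd.2 than in kd.1 by limma (30.8%; 0 and 17 at an unadjusted p under 0.05), against 11.9% higher and 20.3% lower of all tested genes, and 31 of the 39 differences were below 0, with a median of -0.22. The 12 were ZNF30, ZNF155, ZNF45, ZNF224, ZNF675, ZNF266, ZNF547, ZNF274, ZNF222, ZNF426, ZNF480 and ZNF302. Summed over the 39 genes, the level was 137.6 and 135.7 FPKM in kd.2, against 165.6 and 158.2 FPKM in kd.1, and the control stood between them at 146.6 and 142.1 FPKM. Among the 56 KRAB members on other chromosomes, 4 were higher and 9 lower in kd.2, with a median of -0.04. This crossed grouping was formed after the values had been seen, so no test of the difference between the groups is given.

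Against the control, 9 of the 39 rose and 1 fell in kd.1 (23.1% and 2.56%), against 15.8% and 13.4% of all tested genes. The kd.1 median was 0.18, and 34 of the 39 values were above 0, against 53.3% of all tested genes. In kd.2, 2 rose and 9 fell (5.13% and 23.1%), against 15.7% and 22.2% of all tested genes. The kd.2 median of -0.06 turned to 0.04 under a common FPKM sum (3 and 2 called). In kd.1 the counts were 13 and 1 without control replicate 1, 3 and 0 or 2 and 0 without a kd.1 library, and 5 and 0 without either kd.2 library. In kd.2 they were 6 and 10 without control replicate 1, 2 and 6 without either kd.1 library, and 0 and 1 or 1 and 1 without a kd.2 library. The gap between the lines was less dependent on these choices: none of the 39 was called higher in any setting tried, and the number called lower was 8 under a common FPKM sum, 11 after centring and 18 without either control library. Leaving out a kd.2 library gave 8 or 5, and leaving out a kd.1 library 6 or 8, for replicates 1 and 2 in turn. The median of kd.2 against kd.1 varied with level: -0.13 for members at 2 to 5 FPKM and 0.01 at 10 FPKM or more. In the 74 tested ZNF-named genes under a mean of 2 FPKM, on any chromosome, it was -0.19. Over all tested genes that median was -0.05, with 11.9% called higher and 20.3% lower in kd.2. Of the 100 members at 2 to 5 FPKM, 4 were higher and 21 lower, so the share called lower was close to that background. Of the 40 members at 10 FPKM or more, 5 were higher and 6 lower. The part of level in the gap between the lines was not tested.

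Of the 20 members on chromosome 19 with no KRAB match, none rose and 6 fell in the mean of both knockdowns (limma, adjusted p under 0.05; 0 and 8 at an unadjusted p under 0.05), against 16.1% and 18.6% of all tested genes, with a median of -0.16: ZNF428, ZNF358, ZNF580, ZNF784, ZNF524 and ZNF714. ZNF580 stood at 15.3 and 15.1 FPKM in kd.1 and at 17.5 and 19.3 FPKM in kd.2, against 19.8 and 22.6 FPKM in the control. The controls were the highest libraries and kd.1 the lowest, and ZNF580 fell in kd.1 (-0.475 ± 0.08, adjusted p = 0.00438) while the kd.2 change was not called (-0.20 ± 0.08, adjusted p = 0.0886, or 0.00782 without control replicate 1). Summed over the 20 genes, the level was 146.5 and 145.5 FPKM in kd.1 and 159.4 and 165.0 FPKM in kd.2, against 166.0 and 181.5 FPKM in the control. Without control replicate 2, the higher of the controls, 1 rose and 4 fell with a median of -0.08, without control replicate 1 they were 3 and 11, without any single knockdown library 0 rose and 2 or 3 fell, and under a common FPKM sum 0 rose and 3 fell.

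**Figure D4:**
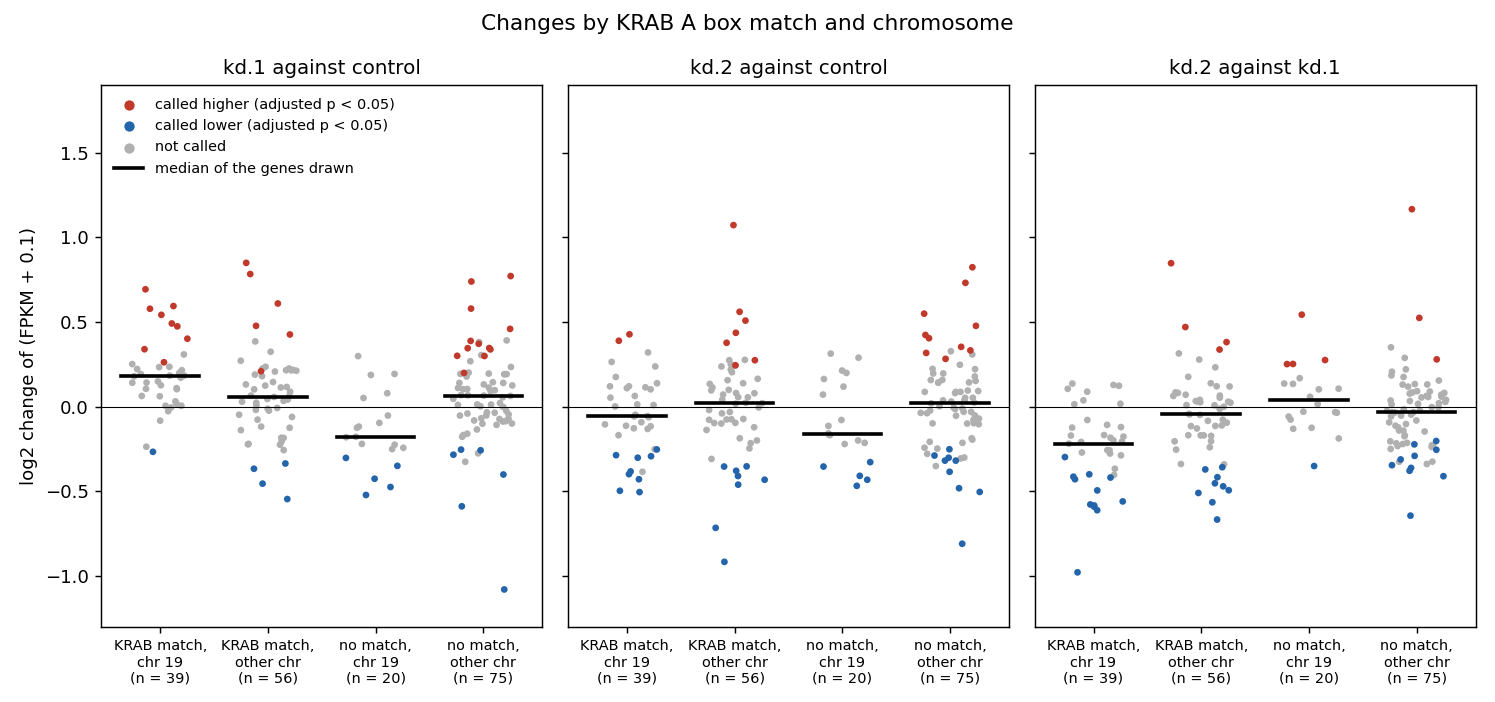
Log2 change of (FPKM + 0.1) of the members split by KRAB A box match and by chromosome 19, for kd.1 against control, kd.2 against control and kd.2 against kd.1, with called members coloured and medians as bars. The 39 KRAB members on chromosome 19 have a median of 0.18 in kd.1, of -0.06 in kd.2 (0.04 under a common FPKM sum) and of -0.22 between the lines, and the 20 members there without a match have a median of -0.18 in kd.1 and -0.16 in kd.2.

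Members lie in runs of ZNF-named genes, and 6 runs on chromosome 19 held at least 4 members each (neighbouring starts within 1000000 bases). The run from 43.5 to 45.1 Mb held 11 members, of which 4 rose and 2 fell in kd.1 and 1 rose and 3 fell in kd.2. None was higher and 4 were lower in kd.2 than in kd.1 (limma, adjusted p under 0.05, and again 0 higher at an unadjusted p under 0.05). Over all tested genes, 15.8% rose and 13.4% fell in kd.1, and 15.7% rose and 22.2% fell in kd.2. Between the lines, 11.9% of all tested genes were higher and 20.3% lower. ZNF45 of this run stood at 3.94 and 3.96 FPKM in kd.1 and at 2.68 and 2.50 FPKM in kd.2, against 2.56 and 2.26 FPKM in the control. It rose in kd.1 (0.69 ± 0.11, adjusted p = 0.00219), where both libraries stood clear of all others, and not in kd.2 (0.10 ± 0.11, adjusted p = 0.464). Its neighbour ZNF226 fell in both lines instead, at 6.72 and 6.22 FPKM in kd.1 and 6.85 and 6.22 FPKM in kd.2, against 7.82 and 7.78 FPKM in the control (-0.27 and -0.25, adjusted p = 0.0467 and 0.0465). Both ZNF226 calls ended under a common FPKM sum (0.204 and 0.274), without control replicate 2 (0.0533 and 0.0551) and without any knockdown library (up to 0.278 in kd.1 and 0.284 in kd.2). ZNF155 and ZNF224 of this run are covered on the opposite strand over 43.1% and 48.8% of their exons.

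The largest run, from 55.5 to 58.5 Mb, held 17 members, of which 1 rose and 2 fell in kd.1 and 4 fell in kd.2. Over all tested genes, 15.8% rose and 13.4% fell in kd.1, and 22.2% fell in kd.2. In the run from 19.7 to 24.1 Mb, only 5 of 33 ZNF-named genes were members. Of these, ZNF431 rose in both lines (0.34 ± 0.09, adjusted p = 0.0275, and 0.43 ± 0.09, adjusted p = 0.00898), at 4.31 and 4.69 FPKM in kd.1 and 4.98 and 4.60 FPKM in kd.2, against 3.57 and 3.50 FPKM in the control. ZNF675, given above, and ZNF714 of this run fell in kd.2, and the median of the 5 was -0.25. ZNF714 stood at 5.65 and 5.30 FPKM in kd.1 and at 5.06 and 5.31 FPKM in kd.2, against 6.15 and 6.94 FPKM in the control (kd.2 change -0.33 ± 0.09, adjusted p = 0.0244), a call lost under a common FPKM sum (0.108) and without control replicate 2 (0.0568) or either kd.2 library (0.154 and 0.0965). In the run from 51.6 to 53.6 Mb, 4 of 38 were members, and ZNF766 rose in kd.1 (0.58 ± 0.11, adjusted p = 0.00696) at 2.88 and 2.98 FPKM in kd.1 and 2.63 and 2.25 FPKM in kd.2, against 1.97 and 1.89 FPKM in the control. All 4 knockdown libraries of ZNF431 and ZNF766 stood above both controls. Leaving out any knockdown library ended the kd.1 call of ZNF431 (0.0591 to 0.201), kd.2 replicate 1 its kd.2 call (0.0939), and kd.1 replicate 2 the kd.1 call of ZNF766 (0.0567). On chromosome 16, which carries 25 members, the run from 30.4 to 31.9 Mb held ZNF267 and ZNF720, which differed between the lines in opposite directions (0.85 and -0.64).

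Finger number was read in the same proteins. In kd.1, 9 of the 30 members with 15 or more C2H2 matches rose and 2 fell (median 0.18), and 5 of the 40 members with fewer than 5 matches rose and 6 fell (median -0.04, or 0.04 under a common FPKM sum), against 15.8% up and 13.4% down over all tested genes. In kd.2, with 15.7% up and 22.2% down over all tested genes, 5 rose and 3 fell with 15 or more matches (median 0.05), and 4 rose and 9 fell with fewer than 5 (median -0.025). Between the lines, 1 member with 15 or more matches was higher and 6 were lower in kd.2 than in kd.1 (median -0.13). With fewer than 5 matches, 4 were higher and 4 lower. Over all tested genes, 11.9% were higher and 20.3% lower in kd.2. The share called lower was close to that background with 15 or more matches and below it with fewer than 5. The kd.1 counts with 15 or more matches were 15 and 3 without control replicate 1, with a median of 0.29, and 8 and 1 without control replicate 2, with a median of 0.09. With a kd.1 library left out they were 4 and 0 (replicate 1) or 6 and 0 (replicate 2). Level ran with finger number: with 15 or more matches the median member was at 3.655 and 3.605 FPKM in kd.1, against 3.18 and 2.85 FPKM in the control, and with fewer than 5 matches at 8.44 and 8.4 FPKM in kd.1, against 8.41 and 8.13 FPKM in the control. The part of level in this split was not tested.

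The co-repressor machinery on which KRAB proteins act was read from a list of 26 genes, of which 24 were measured. TRIM28 stood at 109 FPKM in both kd.1 libraries and at 115 and 118 FPKM in kd.2, against 116 and 120 FPKM in the control, and was called in neither line (-0.12 ± 0.06, adjusted p = 0.167, or 0.0312 without control replicate 1, and -0.02 ± 0.06, adjusted p = 0.776). SETDB1 was not called either (0.04 ± 0.07 and 0.12 ± 0.07, adjusted p = 0.728 and 0.208). Of the 24 genes, 1 rose and 5 fell in kd.1 (4.17% and 20.8%), against 15.8% and 13.4% of all tested genes. In kd.2, 4 rose and 5 fell (16.7% and 20.8%), against 15.7% and 22.2% of all tested genes. The medians were -0.04 in kd.1 and 0.00 in kd.2 (0.04 and 0.10 under a common FPKM sum). Those that fell in both lines were CBX1, a heterochromatin protein (-0.30 and -0.265), the histone deacetylase HDAC1 (-0.34 and -0.26) and SUMO2 (-0.345 and -0.21). The kd.2 call of SUMO2 was lost without the filter (limma, adjusted p = 0.0568) and after centring on the median (0.0668). It was also lost with only the compared groups (0.0916) and with a replicate block (0.0538). Under a common FPKM sum the calls in both lines of CBX1 (0.0503 and 0.1) and the kd.2 calls of HDAC1 (0.124) and SUMO2 (0.165) were lost, as were the kd.2 calls of all 3 without either kd.2 library (0.0659 to 0.238) and the kd.1 calls of CBX1 and SUMO2 without either kd.1 library (0.0523 to 0.0777). UHRF1, which guides maintenance methylation of DNA, fell in kd.2 (-0.58 ± 0.06, adjusted p = 0.000518) at 22.1 and 22.9 FPKM in kd.2, against 34.95 and 32.54 FPKM in the control, and at 29.7 and 29.6 FPKM in kd.1 it was not called (-0.19 ± 0.06, adjusted p = 0.0581, or 0.0129 without control replicate 2).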

How the data were processed

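RNA of 3 HLE lines, with 2 libraries each, was read from a single table of 21372 features deposited by the authors, and 1869 unnamed BGI_novel features were left out. The deposited values were taken as FPKM because they are not whole, carry decimals and add up to different totals; no label states the unit. In the submitters' processing notes stand RSEM 1.2.12, Bowtie2 2.2.5 and HISAT2 2.0.4 as tools and hg38 and GRCh38.p11 as builds, without their use, so strand handling and multiply mapped reads are not given in the sources used here. No counts were used, so depth is unknown and intervals for counting error are not given.

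Named genes with at least 1 FPKM in 2 or more libraries (10851) entered limma 3.58.1 (R 4.3.3) as log2(FPKM + 0.1), with a mean for each line and moderation by trend and robust weights. The fit had 3 residual degrees of freedom, and a median of 8.64 once moderated. A gene was called where its Benjamini-Hochberg adjusted p, taken over all tested genes of a contrast, fell under 0.05. SEs are from limma, with 2 libraries a line. An exact permutation test of 2 against 2 libraries could not pass this threshold. The fit was tested on simulated data.

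The members, gene lists, heptamer and promoter string were chosen with earlier results of these data known. Members are named if they had the largest called changes of a contrast, the highest levels or levels next to the limit, a place in a role list, or the smallest p in a list or run of genes (up to 4 each). ZNF226, ZNF714, ZNF784, ZNF524, the genes of the co-repressor list and the 12 called KRAB members of chromosome 19 were named after their values were seen. Positions, proteins, 3′ UTRs and shared 50-base words came from GENCODE 29 (GRCh38), using a gene's longest coding transcript, and all 190 members were found there. A C2H2 match is 2 cysteines and 2 histidines at the usual spacing. A KRAB A box match has 12 or more identities, without gaps, to a consensus of 37 residues. This limit replaced earlier forms of the search and was set at a gap in the scores, above a highest unmatched score of 10. The grouping by KRAB match and chromosome 19 together, the finger-number groups, the gap of 1000000 bases within a run and the overlap limits were also chosen after values were seen. Promoters came from RefSeq (GRCh38.p14), and a further promoter window is not reported here.

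Alternatives were another pseudocount, no filter, a common FPKM sum, centring on the median, plain moderation, fewer groups, a replicate block, and each library left out in turn.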

Additional observations from a re-analysis of the deposited data

Results flagged for a closer look

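The direct comparison of kd.2 with kd.1 found 21 named members whose change from the shared control differed between the lines (limma, Benjamini-Hochberg adjusted p under 0.05). With 2 libraries in each group, no single library could be tested as standing apart.

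In 7 of them kd.2 was higher than kd.1: by 1.166 on the log2 scale for ZNF821, 0.847 for ZNF267, 0.543 for ZNF146, 0.524 for ZNF217, 0.47 for ZNF777, 0.279 for ZNF598 and 0.275 for ZNF580.

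In the others kd.2 was lower than kd.1, with a log2 difference of -0.979 for ZNF30, -0.667 for ZNF138, -0.644 for ZNF720, -0.612 for ZNF155, -0.591 for ZNF45, -0.584 for ZNF224, -0.578 for ZNF675 and -0.51 for ZNF140. Smaller differences were -0.429 for ZNF274, -0.417 for ZNF195, -0.371 for ZNF789, -0.291 for ZNF76, -0.255 for ZNF346 and -0.223 for ZNF410. ZNF789 fell in both lines, by 0.92 in kd.2 and by 0.55 in kd.1, and ZNF30 was called in opposite directions. The difference was lost when at least 1 of the 6 libraries was left out for ZNF155, ZNF140, ZNF274, ZNF789, ZNF76, ZNF346, ZNF410, ZNF598, ZNF580 and ZNF217, and held whichever library was left out for ZNF821, ZNF267, ZNF146, ZNF777, ZNF30, ZNF138, ZNF720, ZNF195, ZNF224, ZNF45 and ZNF675.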

How the results depend on the processing

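Of the 102 calls of the members named by the rule, 47 held whichever library was left out, 18 were lost under a common FPKM sum, 21 without the filter on low values, and none with a pseudocount of 1. No called change turned its direction.

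Counts and medians moved as follows, and the cause was not tested. Without the filter, 16 members rose and 10 fell in kd.1, and 11 fell in the mean of both knockdowns. Under a common FPKM sum, 8 fell in kd.1, 11 in kd.2 and 8 in the mean, 18 were lower in kd.2 than in kd.1, and the medians were 0.142 in kd.1, 0.089 in kd.2 and 0.11 in the mean. Centring on the median gave a kd.1 median of 0.022, 17 members higher in kd.2 than in kd.1 and a median of -0.007 there. Using only the groups compared, 16 rose and 10 fell in kd.1, and 21 were higher and 51 lower in kd.2 than in kd.1; the mean of both knockdowns needs all groups and was not run so.

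With single libraries left out, 9 to 48 members rose and 6 to 26 fell in kd.1, 3 to 44 rose and 5 to 47 fell in kd.2, and 15 to 51 rose and 6 to 37 fell in the mean. Between the lines, 4 to 21 were higher and 10 to 51 lower in kd.2. A lone library was assumed to vary like the other groups. The lowest counts came without a knockdown library and the highest without control replicate 1.

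Replicate numbers did not pair the libraries: deviations of same-numbered libraries correlated at 0.022 for kd.1 and control, -0.087 for kd.2 and control and 0.183 for kd.2 and kd.1. With a replicate block, 23 members rose and 13 fell in kd.1, 18 rose and 32 fell in kd.2, 23 rose and 17 fell in the mean, and 11 were higher and 30 lower in kd.2 than in kd.1; 12 of the 102 calls were lost. Weakly expressed members rest on unknown read numbers.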

Other observations

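Other zinc finger families are given beside the background of 29.2% of all tested genes called in kd.1 and 37.9% in kd.2. Of 27 tested genes named ZBTB, which join fingers to a BTB domain, 3 rose and 2 fell in kd.1 and 4 rose and 5 fell in kd.2, with medians of 0.06 and 0.01 (0.14 and 0.11 under a common FPKM sum). Of 11 tested genes named ZSCAN, which join fingers to a SCAN domain, 1 rose and none fell in kd.1 and none rose and 3 fell in kd.2 (limma, adjusted p under 0.05; 1 and 1 in kd.1 and 1 and 4 in kd.2 at an unadjusted p under 0.05), with medians of 0.015 (-0.03 after centring on the median) and -0.19. Under a common FPKM sum no ZSCAN gene was called in kd.2. Of 35 tested C2H2 factors with other names, 6 rose and 5 fell in kd.1 and 5 rose and 4 fell in kd.2. Of 6 tested genes named ZFP, 0 were called in kd.1 by limma (0 at an unadjusted p under 0.05) and 1 fell in kd.2.

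The 74 tested ZNF-named genes under a mean of 2 FPKM counted 9 risen and 1 fallen in kd.1 (12.2% and 1.35%), against 15.8% and 13.4% of all tested genes. In kd.2 they counted 2 risen and 7 fallen (2.7% and 9.46%), against 15.7% and 22.2%. Their medians were 0.12 and -0.06, the kd.2 median turning to 0.03 under a common FPKM sum with 4 risen and 2 fallen. Between the lines, 3 of them were higher and 13 lower in kd.2 than in kd.1 (4.05% and 17.6%), against 11.9% and 20.3% of all tested genes. Of the 74 differences, 61 were below 0, with a median of -0.19.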
